A study of Mus musculus with 12 samples.

Results

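The 10 genes examined here mark oligodendrocytes, the cells that wrap axons of the brain in myelin. They were taken as a fixed list of names, Mbp, Mog, Mag, Mobp, Cnp, Cldn11, Olig1, Olig2, Sox10 and Myrf, out of 21887 protein-coding genes of a RefSeq gene table (GRCm38.p6). For each gene, every peak that overlapped the gene body or the 10 kb on either side of it was collected from 2 peak lists. The study made chromatin immunoprecipitation (ChIP) libraries with an antibody against crotonylated lysine of any protein (pan-Kcr) from dorsal hippocampus of C57BL/6J mice. The mice of the library called learning were trained in a spatial object recognition task, and those of the library called homecage stayed in their home cage. There was 1 antibody library per condition, so differences between the lists have no replicate check, and no test between conditions is possible. The labels of these libraries give neither age nor sex, and do not say whether animals were pooled. The other samples of the series, 8 single-nucleus libraries and 2 input libraries, were not analysed here.

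Lysine crotonylation is an acylation of histones and other proteins that is formed from crotonyl-CoA and is found at active promoters and enhancers. Oligodendrocytes arise from precursors in which the basic helix-loop-helix factors Olig1 and Olig2 and the HMG-box factor Sox10 take part in setting the lineage. Sox10 then acts with the membrane-tethered factor Myrf to switch on the genes of the myelin sheath. In bulk hippocampus, oligodendrocytes are a minority of the cells. The lists hold no information on the cell that a fragment came from, so a peak present in fewer cells and a weaker peak in all cells cannot be told apart.

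A peak in these lists is a stretch that the submitters' peak caller marked as enriched. The files as analysed carry its position and name and no height, p-value or read count, so the read depth is unknown and position and width are the only measurements. The homecage list had 331236 peaks on chromosomes 1 to 19, X and Y and the learning list 16002, a ratio of 20.7. The median width was 351 bp and 306 bp. Counts are therefore read against all protein-coding genes of the same list, never directly between the lists.

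The gene starts show how close the peaks came. The RefSeq promoter table, whose windows run from 250 bp before to 50 bp after an annotated start, held 6 of the 10 genes (Mog, Mag, Mobp, Cnp, Cldn11 and Olig2). Mbp, Olig1, Sox10 and Myrf had no entry, and for them the strand was not known here. None of the 6 windows was overlapped by a peak of either list. Across the lists, 6.96% of learning peaks and 1.49% of homecage peaks overlapped a window of the table. The sequences below are GRCm38.p6, 5′ to 3′ on the strand of the gene, and were chosen because Cldn11, Mog, Mag and Olig2 had a peak within 1 kb of the start and Mobp had the most distant homecage peak of the 6. Capitals mark matches to CANNTG (the E-box, the core bound by basic helix-loop-helix factors) or to ACAAAG and ACAATG (the core bound by SOX factors) on either strand, and these motifs did not overlap in the 5 windows.
Cldn11 (chr3:31149670-31149969, plus strand): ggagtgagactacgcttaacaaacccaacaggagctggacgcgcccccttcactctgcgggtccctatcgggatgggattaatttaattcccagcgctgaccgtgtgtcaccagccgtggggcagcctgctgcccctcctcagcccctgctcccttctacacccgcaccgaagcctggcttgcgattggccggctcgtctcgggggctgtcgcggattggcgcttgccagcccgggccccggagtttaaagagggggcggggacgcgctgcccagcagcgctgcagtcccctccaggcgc
Mog (chr17:37023349-37023648, minus strand): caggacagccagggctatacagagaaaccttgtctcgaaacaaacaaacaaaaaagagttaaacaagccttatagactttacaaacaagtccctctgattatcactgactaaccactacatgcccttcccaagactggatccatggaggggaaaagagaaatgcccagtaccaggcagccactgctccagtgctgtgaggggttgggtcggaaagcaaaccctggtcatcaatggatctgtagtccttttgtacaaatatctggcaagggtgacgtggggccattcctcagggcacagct
Mag (chr7:30914873-30915172, minus strand): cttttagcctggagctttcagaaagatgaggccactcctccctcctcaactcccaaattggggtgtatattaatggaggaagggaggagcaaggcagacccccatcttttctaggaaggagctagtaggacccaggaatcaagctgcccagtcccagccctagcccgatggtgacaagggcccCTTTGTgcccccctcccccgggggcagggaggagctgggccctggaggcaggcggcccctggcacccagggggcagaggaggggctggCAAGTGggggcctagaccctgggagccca
Olig2 (chr16:91225300-91225599, plus strand): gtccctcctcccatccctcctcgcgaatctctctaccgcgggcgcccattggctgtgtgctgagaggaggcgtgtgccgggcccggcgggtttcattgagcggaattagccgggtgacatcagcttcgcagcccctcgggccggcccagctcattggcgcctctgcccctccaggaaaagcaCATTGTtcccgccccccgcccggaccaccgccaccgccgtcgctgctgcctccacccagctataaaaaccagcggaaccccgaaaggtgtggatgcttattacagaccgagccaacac
Mobp (chr9:120149492-120149791, plus strand): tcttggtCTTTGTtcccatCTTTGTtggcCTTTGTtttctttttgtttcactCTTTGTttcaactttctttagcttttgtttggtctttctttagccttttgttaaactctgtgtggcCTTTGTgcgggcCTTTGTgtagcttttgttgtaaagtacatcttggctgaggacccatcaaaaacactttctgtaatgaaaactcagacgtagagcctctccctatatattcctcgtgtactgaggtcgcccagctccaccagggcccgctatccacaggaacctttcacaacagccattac
The Mobp window held 6 matches to ACAAAG, all read as CTTTGT on the printed strand. No other of the 32851 windows of the table had as many SOX core matches, and 28.6% had at least 1. Mag had 1 SOX core match and 1 E-box, as did Cnp, whose window is not printed. Olig2 had 1 SOX core match and no E-box, Mobp had no E-box, and Mog and Cldn11 had neither motif. Of all windows, 72.3% held an E-box. The E-box variant CAGCTG, a special case of CANNTG, was in none of the 6 windows and in 16.3% of all. CpG dinucleotides, counted as observed over expected from base composition, ranged over the 6 genes from 0.101 in Mag and 0.171 in Mog through 0.364 in Mobp and 0.638 in Cnp to 0.730 in Cldn11 and 0.815 in Olig2. The median of all windows was 0.384. A motif match is a description of the letters and does not show binding.

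All 10 genes had a homecage peak in the window (background 93.8% of protein-coding genes), and 6 had a learning peak (background 35.4%). The genes with a learning peak were Mbp, Mag, Cnp, Cldn11, Olig1 and Myrf, and those without were Mog, Mobp, Olig2 and Sox10. In all, 10 learning and 86 homecage peaks lay in the windows, and Mbp alone held 4 and 34 of them. Of the learning peaks, 6 lay inside the gene and 4 in the flanks. Of the homecage peaks, 55 lay inside, 1 across a gene end and 30 in the flanks. Within the gene body alone, 3 genes had a learning peak (background 24.8%) and 8 a homecage peak (background 76.9%), because Olig1 and Olig2 had homecage peaks in their flanks only.

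**Figure D1:**
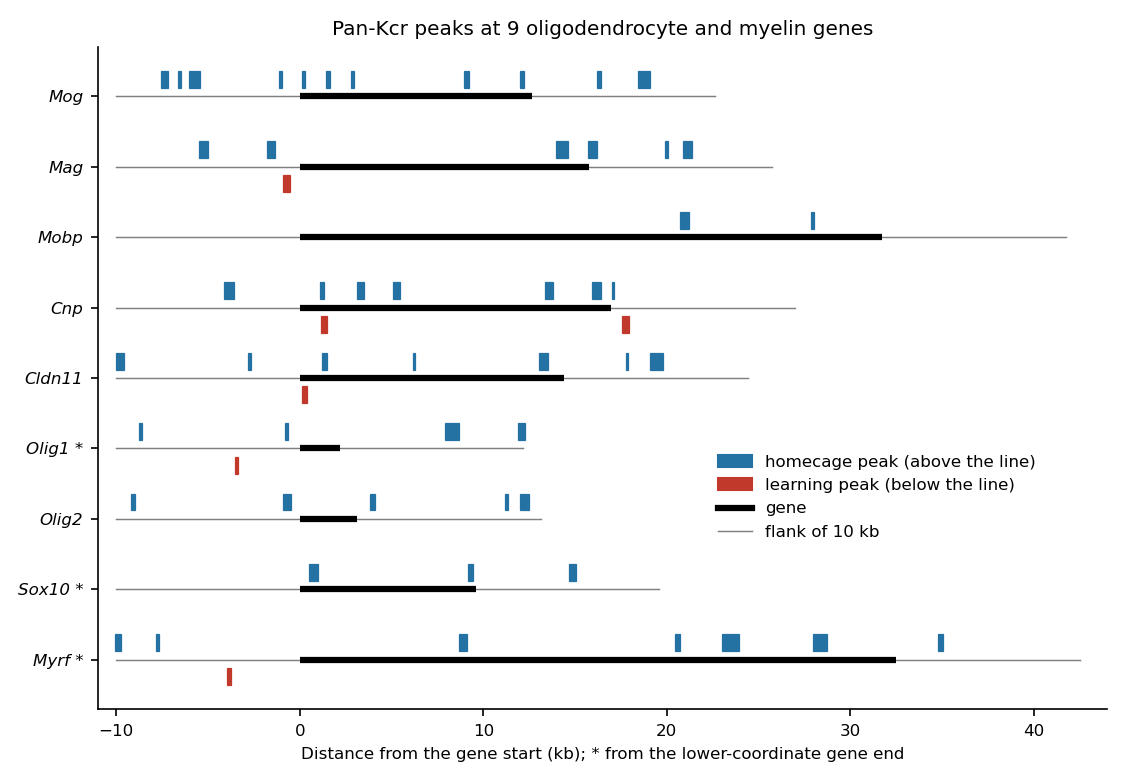
Peaks of the 9 genes other than Mbp, drawn to scale in kb from the gene start, or from the lower-coordinate end for the genes marked with an asterisk. Homecage peaks stand above the line and learning peaks below it, and Mobp has 2 homecage peaks, both over 20 kb from its start.

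Per length, the windows held 2.22 learning peaks per 100 kb (exact Poisson 95% interval 1.07 to 4.09), 2.60 times the 0.857 of all protein-coding gene windows. For homecage the density was 19.1 per 100 kb (15.3 to 23.6), 1.40 times the 13.6 of all windows. These ratios are not matched for gene length. The level of all windows is a sum over genes of every length, in which longer genes weigh more, and 1 of the 10 genes is over 50 kb. It also includes the 966 genes of chromosome X, where peaks were rarer and where none of the 10 genes lies. The densities of the other gene lists below are set beside the same level. The intervals cover counting error only and treat neighbouring peaks as independent, which they are not. The genes were chosen with earlier results of these data known, so the intervals describe the counts and are not a test of the gene list. Without Mbp, the ratios were 2.20 for learning (1.88 per 100 kb, 0.690 to 4.10) and 1.20 for homecage (16.3 per 100 kb, 12.2 to 21.4), and both intervals then included the level of all windows. The interval of the learning ratio also included 1 with flanks of 20 kb (1.97, 0.981 to 3.52) and with peaks of at least 500 bp (2.94, 0.356 to 10.6). The homecage ratio was 0.593 (0.0718 to 2.14) when only the 16002 widest homecage peaks were kept, of which 2 lay in these windows. That interval also included 1.

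Mbp encodes myelin basic protein, which holds the membranes of compact myelin together, and the gene also gives the longer Golli transcripts, which are made in other cells as well. It spans 110547 bp on chromosome 18 (82475091 to 82585637) and carried the most peaks of the 10 genes in both lists. The 4 learning peaks measured 457, 560, 715 and 257 bp and began 9846, 57681, 60679 and 84135 bp from the lower-coordinate end, all inside the gene. The fourth also lay in the long noncoding RNA gene Gm52337. Among protein-coding genes over 50 kb, 57.6% had a learning peak, 97.0% a homecage peak, and 97.1% had a lower learning density than Mbp. Each of the 4 overlapped a homecage peak, by 153, 488, 202 and 171 bp, and among genes of this length 33.3% had such an overlap.

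The 34 homecage peaks at Mbp were 147 to 1464 bp wide, with a median of 384 bp, and covered 15560 bp, or 11.9% of the window. The density of 2.60 per 10 kb (1.80 to 3.64) was above that of 98.5% of genes over 50 kb, whose median was 1.36. The peaks were unevenly spread. There were 4 in the first 10 kb from the lower-coordinate end, 2 in each of the bins from 20 to 50 kb, 4 from 50 to 60 kb, 4 from 60 to 70 kb and 7 from 70 to 80 kb. No peak was centred between 90 and 100 kb. The widest, 1464 bp, lay at 82530651 to 82532114, and 657 bp separated it from the learning peak of 560 bp.

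**Figure D2:**
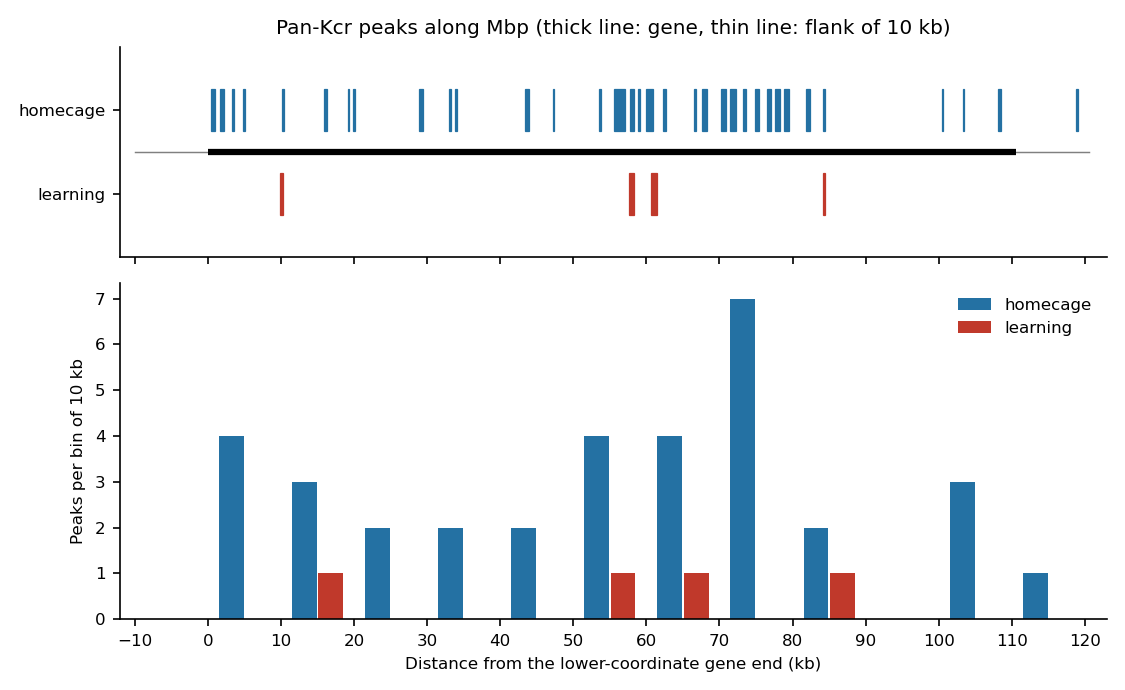
Peaks along Mbp in kb from the lower-coordinate gene end, to scale above and as peaks per bin of 10 kb below. The bin from 70 to 80 kb holds 7 homecage peaks and no learning peak, and the 4 learning peaks each stand at a homecage peak.

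A run of 9 homecage peaks with gaps below 2 kb stretched over 13.0 kb of Mbp (82541546 to 82554585), 66.5 to 79.5 kb from the lower-coordinate end. This measure was chosen after the peaks had been seen, and is given as a description. The 9 peaks were 376 to 788 bp wide with a median of 643 bp, against 296 bp for the 25 other homecage peaks of the gene, and covered 42.1% of the run. The gaps between them ran from 483 to 1888 bp. No learning peak lay in the run, 2 lay in the 10 kb below it and 1 above. Learning density was 0.306 per 10 kb at Mbp and 0.0857 over all protein-coding genes. At such densities most stretches of 13.0 kb hold no learning peak. A run of at least 9 peaks occurred at 84 protein-coding genes (background 0.384%), and at 25 of the 4945 over 50 kb (0.506%), where the median was 3 peaks and the longest run 32. With gaps below 1 kb the longest run at Mbp was 4 peaks, a length reached by 2.23% of protein-coding genes. With gaps below 3 kb it was 11, reached by 0.535%.

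**Figure D3:**
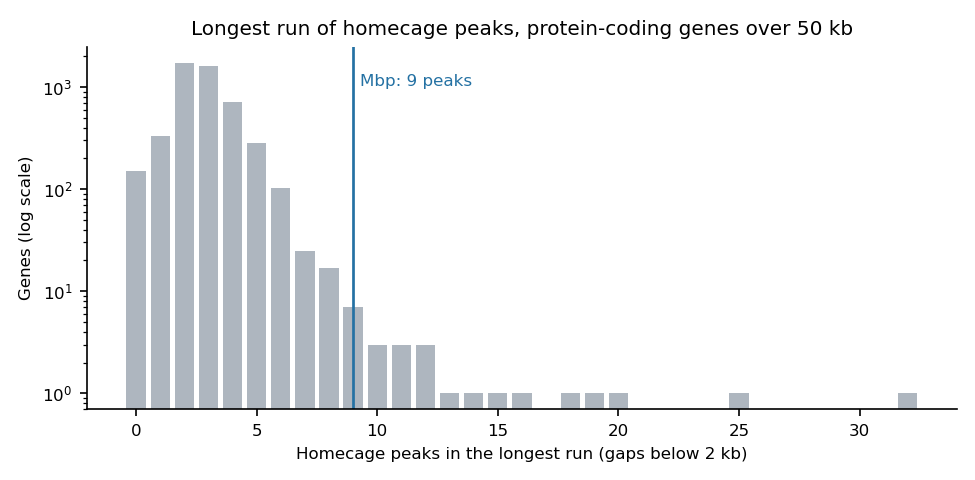
Number of protein-coding genes over 50 kb (log axis) by the number of homecage peaks in their longest run with gaps below 2 kb. Mbp, marked by the line, has 9 peaks, and 25 of 4945 genes have 9 or more.

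Mog encodes a glycoprotein on the outermost surface of myelin. It had no learning peak (background for genes of 10 to 20 kb 31.7%), and the nearest to its start was 100006 bp away. It had 11 homecage peaks, the highest density of the 10 genes at 3.37 per 10 kb (1.68 to 6.03), above 98.9% of genes of 10 to 20 kb. They were narrow, with a median of 216 bp and a range of 147 to 665 bp, and 5 lay inside the gene. The peak nearest to the start was 147 bp wide and ran from 137 to 283 bp downstream (37023115 to 37023261), beyond the printed promoter window by 87 bp. The 2 peaks beyond the other end of the gene, 665 and 234 bp wide, lay inside the neighbouring zinc finger gene Zfp57. With flanks of 5 kb the count at Mog was 7.

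Mag encodes an adhesion molecule of the myelin layer next to the axon. Its learning peak, 389 bp wide (chromosome 7, 30915439 to 30915827), lay 517 to 905 bp upstream of the gene start. A homecage peak of 461 bp lay further upstream, separated by 431 bp, and the lists did not overlap there. Of the 6 homecage peaks, 1 of 446 bp crossed the far end of the gene and 1 of 662 bp lay inside near that end. No homecage peak was nearer to the start than 1337 bp.

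Cldn11 encodes a claudin of the tight junctions between myelin layers. Its learning peak of 304 bp (chromosome 3, 31150012 to 31150315) ran from 92 to 395 bp downstream of the start and was the nearest to a start among the learning peaks of the 6 genes with a known strand. It began 42 bp past the end of the printed promoter window. The nearest of the 7 homecage peaks, 294 bp wide, began 795 bp further downstream.

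Cnp encodes a phosphodiesterase of non-compact myelin. It had 2 learning peaks and 7 homecage peaks. The learning peak of 287 bp (chromosome 11, 100576080 to 100576366) began 1171 bp downstream of the gene start and shared 139 bp with a homecage peak of 235 bp that began at 1075 bp. The other learning peak, 378 bp wide, lay 598 bp beyond the far end of Cnp, inside the chaperone gene Dnajc7, which overlaps that end, and 415 bp from the nearest homecage peak. Cnp and Mbp were the 2 genes with overlapping peaks of both lists, a pattern found at 21.1% of protein-coding genes.

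Mobp encodes a small basic protein of compact myelin and stood at the other extreme. It had no learning peak (background for genes of 20 to 50 kb 36.5%), and the nearest to its start was 83971 bp away. Its 2 homecage peaks, 521 and 159 bp wide, began 20712 and 27855 bp downstream of the start, and no peak lay in either flank. The density of 0.386 per 10 kb (0.0468 to 1.40) exceeded that of only 6.48% of genes of its length class. The median of that class was 1.37, inside the interval. The promoter window with 6 SOX core matches thus had no peak of either list nearby, the closest homecage peak lying 17431 bp from the start on the upstream side, outside the 10 kb flank.

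**Figure D4:**
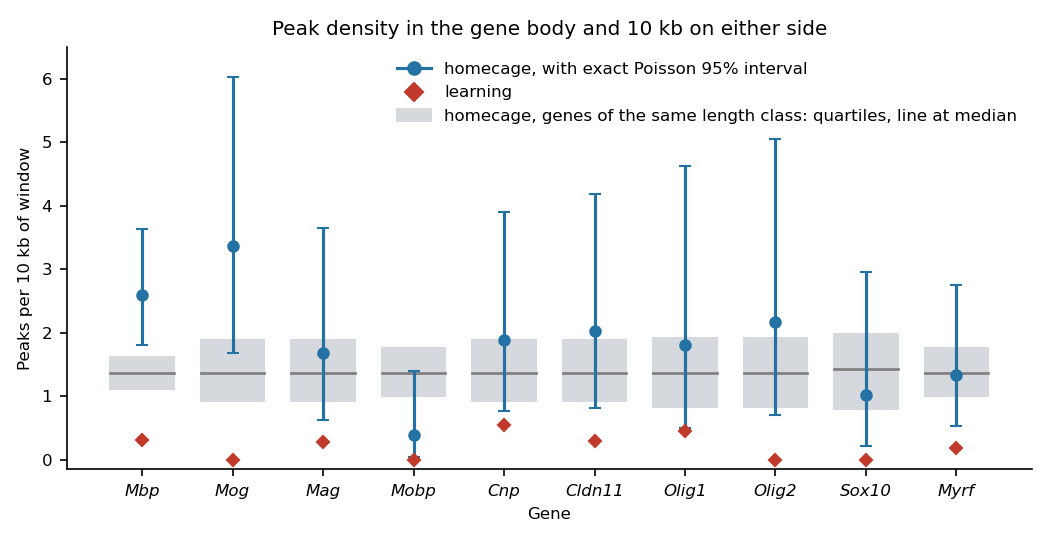
Peaks per 10 kb of window for each gene, with exact Poisson 95% intervals (counting error only) for homecage, and grey boxes for the quartiles of homecage density among protein-coding genes of the same length class. Mog at 3.37, Mbp at 2.60, Olig2 at 2.16, Cldn11 at 2.03 and Cnp at 1.89 lie above their boxes (Cnp barely, with the box ending at 1.88). Mobp lies below its box at 0.386. The intervals of Olig2, Cldn11, Cnp and Mobp include the median of their length class, and those of Mog and Mbp do not.

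The 4 transcription factor genes held 2 of the 10 learning and 19 of the 86 homecage peaks, and their homecage densities ranged from 1.01 to 2.16 per 10 kb. Their windows are short, and together they had 0.157 learning and 1.49 homecage peaks per 10 kb. All protein-coding genes had 0.0857 and 1.36. The 6 myelin protein genes had 0.248 and 2.08, with 34 of their 67 homecage peaks at Mbp. Olig2 is required to specify the lineage and Olig1 promotes maturation, and both are short genes on chromosome 16. Olig2 had no learning peak (background for genes under 5 kb 19.2%), the nearest being 40704 bp from its start. It had 5 homecage peaks, all in the flanks, and the 428 bp peak (91224657 to 91225084) lay 466 to 893 bp upstream of the start. Olig1 had 1 learning peak of 146 bp, the narrowest width in the learning list, 3370 bp outside its lower-coordinate end. It had 4 homecage peaks, all in the flanks, of which the nearest was 163 bp wide and 628 bp away.

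Sox10 had no learning peak (background for genes of 5 to 10 kb 28.9%) and 3 homecage peaks of 525, 257 and 378 bp. The first 2 lay inside the gene near its ends, 478 and 163 bp from them, and the last lay in the noncoding gene Gm10863. The density of 1.01 per 10 kb (0.209 to 2.96) was above 27.0% of genes of its class.

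Myrf had 7 homecage peaks, 4 of them inside the gene, of 461, 246, 931 and 761 bp. Its single learning peak, 189 bp wide (chromosome 19, 10204309 to 10204497), lay 3774 bp outside the gene, at the start of Fen1, which encodes flap endonuclease 1 of DNA repair, and inside the neighbouring gene Tmem258. It was the sole one of the 96 peaks to overlap a promoter window of the table, and no homecage peak was nearer than 3729 bp. The window of Fen1 is printed because it is the promoter that this peak overlaps, with the 154 bases under the peak in capitals.
Fen1 (chr19:10204344-10204643, minus strand): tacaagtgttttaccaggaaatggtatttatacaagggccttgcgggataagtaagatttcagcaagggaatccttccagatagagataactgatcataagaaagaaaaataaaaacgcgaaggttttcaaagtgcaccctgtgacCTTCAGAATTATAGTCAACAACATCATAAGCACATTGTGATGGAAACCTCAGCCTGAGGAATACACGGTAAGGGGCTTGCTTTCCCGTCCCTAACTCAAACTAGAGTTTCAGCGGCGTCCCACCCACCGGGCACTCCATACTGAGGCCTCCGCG
The peak covered the annotated start of Fen1. The learning count at Myrf therefore rested on the promoter of a neighbour, and with gene bodies alone Myrf had no learning peak.

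At the gene starts, counting both ends where the strand was unknown, 2 of the 10 genes had a learning peak within 1 kb (background 14.6%) and 5 had a homecage peak (background 50.6%). The learning genes were Mag and Cldn11, and the homecage genes Mbp, Mog, Olig1, Olig2 and Sox10. At Mbp the peak lay 470 bp inside the lower-coordinate end, and the starts of its separate transcripts were not analysed here. No gene was in both groups (background 12.3%). Among the 6 genes with a known strand, the counts were 2 for learning (background 14.4%) and 2 for homecage (background 48.3%). Among the 4 without, they were 0 (background 15.4%, with either end counted) and 3 (background 59.5%). Over all 10 genes, windows of 3 kb gave 3 genes with a learning peak (background 17.9%) and 9 with a homecage peak (background 71.1%).

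In these windows 5 of 10 learning peaks had a homecage partner (50%, against 43.1% of the learning list), 4 of them at Mbp. Those 5 partners were 5.81% of the 86 homecage peaks, against 2.05% of the homecage list. The other 5 learning peaks stood 415 to 3729 bp from the nearest homecage peak, and 3 of them, at Cnp, Mag and Cldn11, less than 1 kb. At least 50% of both peaks was shared in 2 cases. Peak width in the windows was near that of the lists, with a median of 341 bp for learning and 377 bp for homecage. Without Mbp the medians were 296 bp and 354 bp, against 306 bp and 351 bp in the lists. Of the homecage peaks, 26 (30.2%) were at least 500 bp wide, against 24.8% of the list. Mbp held 14 of these 26, and 34 of all 86 homecage peaks. All 10 genes had such a wide homecage peak (background 72.8%), and Mbp alone had wide learning peaks (background 8.23%).

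A further 39 genes of the lineage, listed by role, gave counts closer to the background. Of these, 17 had a learning peak (43.6%, background 35.4%) and 38 a homecage peak (97.4%, background 93.8%). Their homecage density was 1.45 per 10 kb and their learning density 0.0872, against 1.36 and 0.0857 for all protein-coding genes. These are sums over windows, in which long genes weigh more. Sox5 (953863 bp) had 1.12 and 0.0411 per 10 kb, and Sox6 (569905 bp) 1.20 and 0.0509. By list, the densities were 1.58 and 0.0947 for myelin and mature oligodendrocytes. They were 1.35 and 0.0774 for differentiation factors, and 1.53 and 0.105 for precursors and receptors. Among 19 genes of myelin and mature oligodendrocytes, Aspa, Car2, Enpp2, Gpr37, Mal, Plekhb1, Ptgds and Tspan2 had a learning peak, 8 in all (42.1%, background 35.4%). At 6 of the 19 genes a learning peak overlapped a homecage peak (background 21.1%). The widest learning peak of this group was 805 bp at Mal, a proteolipid of myelin membranes (chromosome 2, 127628258 to 127629062), which lay 4164 bp outside the gene. That of Car2, the carbonic anhydrase of oligodendrocytes, was 765 bp (chromosome 3, 14886329 to 14887093) and lay inside the gene and within 1 kb of an end. Plekhb1 had the widest homecage peak of the 39 genes, 1683 bp (chromosome 7, 100656892 to 100658574), without overlap. Gjb1, a connexin, had no peak in either list. It lies on chromosome X, where 18.8% of protein-coding genes had a homecage peak and 0.828% a learning peak in the window.

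Among 13 differentiation factors, 6 had a learning peak, namely Hes5, Sox5, Sox6, Sox8, Yy1 and Zeb2. Zeb2, a repressor needed for myelination, spans 133931 bp and had 5 learning and 36 homecage peaks (0.325 and 2.34 per 10 kb). The upper quartiles of genes over 50 kb were 0.115 for learning and 1.62 for homecage. Its widest learning peak of 1048 bp (chromosome 2, 45109295 to 45110342) overlapped its widest homecage peak of 1565 bp. Among 7 genes of precursors and receptors, Enpp6, Lingo1 and Ptprz1 had a learning peak (42.9%, background 35.4%), and all of these are over 50 kb. Lingo1, a brake on myelination, spans 177851 bp and had 5 learning peaks (0.253 per 10 kb), of which 4 overlapped a homecage peak. Such an overlap was found at 33.3% of genes over 50 kb. Its homecage density was 1.62 per 10 kb, and its widest homecage peak measured 1529 bp.

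For comparison, 4 of 10 astrocyte genes and 2 of 10 microglia genes had a learning peak in the same window (background 35.4%). A homecage peak was found at 10 and 9 of them (background 93.8%). Homecage density was 1.38 per 10 kb in the astrocyte list and 1.31 in the microglia list, against 1.36 for all protein-coding genes. Learning density was 0.0755 and 0.0757, against 0.0857. With 10 genes per list these counts were not tested against each other.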

How the data were processed

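Broad peaks were called separately in each library by the submitters. Trimmomatic, BWA, MACS2 and the build mm10 are named without versions or roles, per the submitters' processing notes, and a p-value threshold of 0.01 is part of the deposited peak names. Use of the input libraries, read filters and depth are not given in the sources used here. The deposited columns hold peak start and end in bp and were made 1-based.

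Gene positions came from a RefSeq table of GRCm38.p6, the assembly called mm10, with 21887 protein-coding genes on chromosomes 1 to 19, X and Y, and strands from its promoter table (17492 genes). All 10 genes and the 59 of the other lists matched by symbol. A gene start is the outermost annotated end on its strand. Exons and introns were not analysed here. Peaks were shared when they overlapped by at least 1 bp. Counts are set beside those over all protein-coding genes or those of the same length class (under 5, 5 to 10, 10 to 20, 20 to 50 and over 50 kb). Analyses ran in Python 3.11.15 with scipy 1.17.1, pandas 2.3.3, matplotlib 3.10.9 and numpy 2.4.6, and the functions were tested on simulated lists. All 10 genes are named, and of the other lineage genes those with a learning peak, the 3 with the widest peak per list, and, after their values were seen, the 1 without a homecage peak and the genes of the closing section. The rest enter the counts only, except 1 listed gene that is left out and not reported here. The genes and lists were chosen with earlier results of these data known.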

Additional observations from a re-analysis of the deposited data

How the results depend on the processing

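No paired analysis was possible because the learning and the homecage condition are each represented by a single antibody library, which also leaves no replicate to omit. Of 64 recomputed values, 37 stayed within 1.5 times the reported count or inside its counting interval, 26 moved further and 1 changed side. With gene bodies only, 3 genes had a learning peak and the windows held 6 learning and 56 homecage peaks, 5 of them at Mog. With peaks of at least 500 bp, 1 gene had a learning peak, 2 learning and 26 homecage peaks remained, 2 learning peaks overlapped a homecage peak, 0 genes had a learning and 1 a homecage peak within 1 kb of the start, and the longest run at Mbp was 4 peaks. With the 16002 widest homecage peaks, all at least 884 bp wide, 2 genes had a homecage peak (background 31.2%), 2 homecage peaks lay in the windows, 0 learning peaks overlapped them, 0 genes had a homecage peak at the start, the longest run at Mbp was 1, and the homecage density ratio fell from 1.40 to 0.593 (0.0718 to 2.14). Fewer peaks enter these settings by construction. For both, the share of all protein-coding genes with a peak within 1 kb of the start was not computed. The counts at the start in these settings therefore cannot be set against a background. Without Mbp, 6 learning and 52 homecage peaks were left and 1 learning peak overlapped a homecage peak. When partners had to share at least 50% of each other, 2 learning peaks remained shared, and a gap of up to 1 kb gave 8. Start windows of 500 bp gave 1 gene with a learning peak (background 12.2%), and windows of 3 kb gave 9 with a homecage peak (background 71.1%). With gaps below 1 kb the run at Mbp was 4 peaks. The settings without Mbp, the other gap limits and the values for Mog and Mbp alone were chosen after seeing the data. Depth is unknown, so a missing peak was not detectable in these lists and is not shown to be absent.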

Other observations

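Some genes of the wider lineage lists had denser homecage peaks than any of the 10 genes, and were picked after their values were seen. Sox8, a relative of Sox10, had 12 homecage peaks in its window, or 4.84 per 10 kb, with a longest run of 6 peaks and a widest peak of 1114 bp (chromosome 17, 25565486 to 25566599). Its widest learning peak, 641 bp, lay 7971 bp outside the gene and overlapped no homecage peak. Ptgds, which encodes prostaglandin D synthase, had 9 homecage peaks or 3.85 per 10 kb. Id2, an inhibitor of basic helix-loop-helix factors, had 8 or 3.59 per 10 kb and no learning peak (background for genes under 5 kb 19.2%). Sox8, Ptgds and Id2 are themselves under 5 kb, so their windows are mostly flank. The median homecage density of that class was 1.36 and its upper quartile 1.91. The share of genes of this length that reach such densities, or a run of 6 peaks, is not given here. Pdgfra, the receptor that marks oligodendrocyte precursors, had 5 homecage peaks or 0.748 per 10 kb, and the widest, 1299 bp, lay 7984 bp outside the gene. Among genes of 20 to 50 kb, its length class, the lower quartile was 0.996 and the median 1.37.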
